A study of Mus musculus with 12 samples.

Results

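A set of 9 genes of DNA methylation was followed in the developing cortex. They were the writers Dnmt1, Dnmt3a and Dnmt3b with the maintenance factor Uhrf1, the erasers Tet1, Tet2 and Tet3, and the methyl-CpG readers Mbd1 and Mbd2. The genes were chosen by name, the counts of all RefSeq transcripts with the same symbol were added, and all 9 of them were found among 24452 symbols (28 of 35840 transcripts). RNA came from the somatosensory cortex of male mice on a C57BL/6 background at postnatal day 7, taken 8 h after the last intraperitoneal injection. The 4 groups of 3 libraries were WT mice given saline (libraries 1, 3 and 13), WT mice given ethanol at 2.5 g/kg in each of a pair of injections (4, 5 and 14), p53 KO mice given saline (7, 8 and 9) and p53 KO mice given the same ethanol doses (10, 12 and 18). WT and KO mice were offspring of p53 heterozygotes, and the KO mice carried the constitutive Trp53tm1Tyj allele in every cell. The labels do not say that each library came from a separate mouse, so the p-values measure the spread between these samples, which may in part be technical.

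DNA methylation in mammals is placed mostly on the cytosine of CpG dinucleotides. Dnmt1 copies the marks onto new DNA after replication, guided by Uhrf1, which binds hemimethylated sites, whereas Dnmt3a and Dnmt3b place new marks, and Dnmt3a is the main de novo enzyme of the postnatal brain. Tet proteins oxidise methylated cytosine as a step towards its removal, and neurons are rich in the oxidised form. Mbd1 and Mbd2 bind methylated CpG and recruit repressor complexes, in the case of Mbd2 the nucleosome remodelling and deacetylase complex NuRD. In mouse models, alcohol exposure during brain development is known to alter DNA methylation, and p53 is a known regulator of several of these enzymes.

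The Dnmt3a and Dnmt1 counts were divided by the authors' quantification among transcripts with different starts. For this reason the stretches before some of these starts are shown. Dnmt3a lies on the plus strand of chromosome 12 (3806980 to 3914443 in mm10, 3 transcripts). Its long transcripts NM_007872 and NM_001271753 start at 3806980 and 3807160, and the short transcript NM_153743 starts within the gene, at 3891744. Dnmt1 lies on the minus strand of chromosome 9 (20907206 to 20959888, 5 transcripts), where NM_001199432 starts at 20959888, 3 transcripts start at 20952979, and NM_001199433 starts at 20952623. Each sequence below is 200 bases of RefSeq on build GRCm38.p6, is written 5′ to 3′ on the strand of the gene, ends 20 bases before the start, and has its CpG dinucleotides in capitals. They lie at chr12:3806760-3806959 and chr12:3891524-3891723 for Dnmt3a and at chr9:20959909-20960108 and chr9:20953000-20953199 for Dnmt1.
Dnmt3a, before the first upstream start: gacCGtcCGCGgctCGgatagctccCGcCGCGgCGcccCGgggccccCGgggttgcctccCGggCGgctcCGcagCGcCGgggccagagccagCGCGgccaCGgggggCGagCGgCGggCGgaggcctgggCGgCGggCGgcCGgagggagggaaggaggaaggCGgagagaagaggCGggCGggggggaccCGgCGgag
Dnmt3a, before the internal start: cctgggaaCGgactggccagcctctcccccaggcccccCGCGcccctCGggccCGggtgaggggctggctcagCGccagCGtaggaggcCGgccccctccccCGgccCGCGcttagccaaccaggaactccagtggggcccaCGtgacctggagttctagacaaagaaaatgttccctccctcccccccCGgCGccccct
Dnmt1, before the outermost start: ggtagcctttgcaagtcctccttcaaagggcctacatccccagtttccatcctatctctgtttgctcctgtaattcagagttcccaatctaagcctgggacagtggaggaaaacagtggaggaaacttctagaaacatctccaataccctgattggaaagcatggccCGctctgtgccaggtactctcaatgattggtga
Dnmt1, before the start shared by 3 transcripts: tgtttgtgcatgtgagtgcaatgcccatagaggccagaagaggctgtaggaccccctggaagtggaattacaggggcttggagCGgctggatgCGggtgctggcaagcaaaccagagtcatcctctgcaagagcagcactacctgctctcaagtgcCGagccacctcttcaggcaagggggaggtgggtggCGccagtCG
The stretch before the first Dnmt3a start held 31 CpG, and that before the internal start held 14. The Dnmt1 stretches shown held 1 and 5 CpG, and that before the Dnmt1 start at 20952623 is not shown. None of the 4 stretches overlapped an exon of the GENCODE annotation of this assembly.

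Start windows were used for 7 of the 9 genes, with 12 windows of 300 bases (250 before and 50 after the start). Chromosome 18, which holds Mbd1 and Mbd2, was left out of the windows of the 9 genes. The CpG count of a window was highest for Tet2 (57), followed by the Dnmt3a upstream windows (47 and 46), and was lowest for the outermost Dnmt1 start (2). The Dnmt1 windows at the starts 20952979 and 20952623 held 12 and 33 CpG, so the Dnmt1 starts differed widely. The median over all 32851 windows was 7. The p53 consensus decamer, which reads the same on both strands and was searched by that name's standard letters with no mismatch, was found in 0 of the 12 windows and in 8.36% of all windows. These letters were searched only in these windows, and p53 binding was not measured.

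Total counts ranged from 719735 to 17066392 a library. The 2 shallowest libraries, WT saline 3 and KO ethanol 12, were also those whose names open with L instead of P, and the labels do not say what the letter marks, so results were also computed without both. Libraries differed by gene length as well. In 11459 genes with enough counts, long genes (the upper tertile, from 4490 bases) minus short genes (the lower tertile, up to 2820 bases) in the centred log2 count gave -0.96, -0.12 and -0.72 in WT saline libraries 1, 3 and 13 and -0.81 in KO ethanol 12, and it lay between 0.08 and 0.63 in the other 8 libraries. Of the 9 genes, 5 were in the upper tertile (Dnmt1, Dnmt3a, Tet1, Tet2 and Tet3), at percentiles 82.6 to 99.4 of length. Neuronal markers were present in every library, with a summed level of 2772 to 6996 normalised CPM (the count relative to the library size, scaled by TMM factors). Trp53 itself lay between 3.67 and 26.2 CPM in WT and between 11.1 and 28.7 CPM in KO libraries. These reads were counted over whole transcripts, and the allele removes only part of the gene, so its level does not check the genotype labels.

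Of the other genes, Dnmt3b lies on chromosome 2 (153649449 to 153687730 in mm10, 9 transcripts), Tet1 on chromosome 10 (62804570 to 62880014, 2 transcripts), Tet2 on chromosome 3 (133463677 to 133544390, 1 transcript) and Tet3 on chromosome 6 (83362374 to 83441678, 1 transcript). Uhrf1 lies on chromosome 17 (56303337 to 56323486, 4 transcripts). Mbd1 and Mbd2 lie on the same chromosome, 18, at 74268288 to 74282684 (1 transcript) and 70568292 to 70626131 (2 transcripts).

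Dnmt3a had the highest deposited RPKM of the 9 genes, at 14.8 ± 5.92 RPKM (by name, reads relative to transcript length and library size, mean ± SD, n = 12 libraries). The deposited values did not follow the count over library size alone, and the scaling behind them is not given. Tet2, with 1 transcript, was at 1.91 RPKM from 82 of 9659724 counts in WT saline 1. In WT ethanol 4 it was at 1.75 RPKM from 394 of 15387284 counts. Mbd2 (9.30 ± 2.35), Dnmt1 (8.97 ± 3.02), Mbd1 (7.82 ± 2.18) and Tet3 (5.79 ± 0.943) RPKM followed. The lower levels were those of Tet2 (2.15 ± 0.805), Tet1 (1.86 ± 0.651), Uhrf1 (1.23 ± 0.625) and Dnmt3b (0.859 ± 1.37) RPKM. Of the 8 neighbouring pairs in this order, 7 differed by less than the larger SD of the pair, and the step from Tet3 to Tet2 was the exception. The mean of Dnmt3b was raised by KO ethanol 12 (4.68 RPKM from 2 counts) and WT saline 3 (2.54 RPKM from 11 counts), and its other 10 libraries lay between 0.142 and 0.517 RPKM.

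None of the 9 genes passed an unadjusted p of 0.05 for ethanol in WT mice with all libraries (edgeR quasi-likelihood test), whereas 18.3% of all 14739 genes tested did, and DESeq2 gave 1 of 9. Tet1 alone passed for KO saline versus WT saline (1 of 9 genes, 19.6% of all genes), and Dnmt3a and Tet1 passed for the difference between the ethanol effect in KO and that in WT (2 of 9, 15.2% of all genes). The share of the 9 genes was below or near that of all genes. At the study's adjusted level of 0.30, Dnmt3a, Tet1 and Mbd2 were called higher after ethanol in WT mice (3 of 9, 22.5% of all genes), Tet1 was called higher in KO saline than in WT saline (1 of 9, 25.8%), and Tet1 was called for the interaction (1 of 9, 11.1%). The median log2 fold change of the 9 genes was 0.59 for ethanol in WT mice (all genes, 0.06), 0.71 for KO versus WT under saline (0.04) and -0.69 for the interaction (-0.11). All 3 of these comparisons use the same WT saline libraries, so they are not independent of each other.

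**Figure D1:**
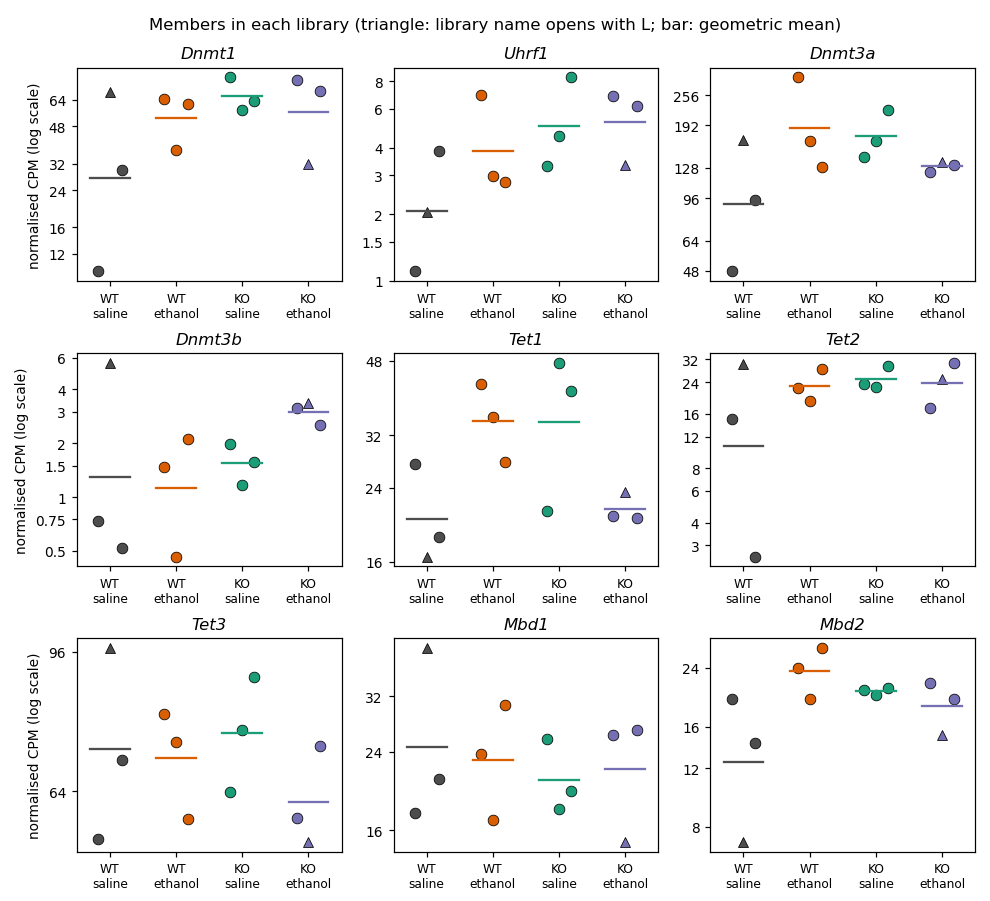
Normalised CPM of each of the 9 genes in each of the 12 libraries, on a log axis that differs between panels, grouped by genotype and treatment. Each point is 1 library, triangles are the 2 libraries whose names open with L, and bars are geometric means. The WT saline libraries span 9.92 to 69.9 CPM for Dnmt1, 47.8 to 168 CPM for Dnmt3a and 2.60 to 30.3 CPM for Tet2, and their triangle is their highest point for Dnmt1, Dnmt3a, Dnmt3b, Tet2, Tet3 and Mbd1 and their lowest for Tet1 and Mbd2.

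Dnmt1, the maintenance methyltransferase, was measured at 9.92, 69.9 and 29.8 CPM in WT saline libraries 1, 3 and 13, at 64.4, 37.1 and 61.3 CPM in WT ethanol 4, 5 and 14, at 81.9, 57.2 and 63.0 CPM in KO saline 7, 8 and 9, and at 79.3, 31.8 and 70.8 CPM in KO ethanol 10, 12 and 18. WT saline 1 and 13 were the lowest libraries of all, and WT saline 3 was as high as the other groups, so the groups overlapped. The log2 fold change was 0.59 ± 0.55 (SE) for ethanol in WT mice (adjusted p = 0.566) and 0.91 ± 0.55 for KO versus WT under saline (adjusted p = 0.365). The result turned on WT saline 3, and without this library alone the 2 values were 1.38 and 1.71, both past an unadjusted p of 0.05, and the interaction also passed, at -1.47. Without both libraries named with L, Dnmt1 was higher by 1.36 ± 0.43 after ethanol in WT mice (edgeR adjusted p = 0.043) and by 1.69 ± 0.44 in KO than WT mice under saline (adjusted p = 0.017).

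Uhrf1, which brings Dnmt1 to hemimethylated DNA, was a low-count gene, with 2 to 123 reads a library. Its level was 1.10, 2.06 and 3.86 CPM in WT saline 1, 3 and 13, 6.96, 2.96 and 2.81 CPM in WT ethanol 4, 5 and 14, 3.32, 4.51 and 8.33 CPM in KO saline 7, 8 and 9, and 6.87, 3.34 and 6.15 CPM in KO ethanol 10, 12 and 18. The lowest libraries were WT saline 1 and 3, and WT saline 13 lay among the other groups. The log2 fold change of Uhrf1 was 0.81 ± 0.61 for ethanol in WT mice (adjusted p = 0.475) and 1.13 ± 0.61 for KO versus WT under saline (adjusted p = 0.311), and neither passed with all libraries. Without WT saline 13 the latter passed an unadjusted p of 0.05, at 1.86.

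Dnmt3a, the de novo methyltransferase with the highest level of the 9 genes, was measured at 47.8, 168 and 94.5 CPM in WT saline 1, 3 and 13, at 304, 165 and 130 CPM in WT ethanol 4, 5 and 14, at 143, 166 and 223 CPM in KO saline 7, 8 and 9, and at 123, 135 and 132 CPM in KO ethanol 10, 12 and 18. WT saline 1 and 13 were the lowest libraries, and WT ethanol 4 was the highest. WT saline 3 lay within the WT ethanol and KO saline ranges, and the KO ethanol libraries were close together. The log2 fold change was 0.96 ± 0.45 for ethanol in WT mice (adjusted p = 0.273) and 0.79 ± 0.45 for KO versus WT under saline (adjusted p = 0.337). In KO mice the ethanol effect on Dnmt3a was -0.45 ± 0.45 (adjusted p = 0.999). The difference between the ethanol effects was -1.40 ± 0.63 (edgeR adjusted p = 0.318). This difference no longer passed an unadjusted p of 0.05 without any 1 of 8 libraries (WT saline 1 or 13, WT ethanol 4, KO saline 8 or 9, or KO ethanol 10, 12 or 18), at -1.45 to -0.93. Without WT saline 3 alone, Dnmt3a was at 1.42 for ethanol in WT mice and 1.28 for KO versus WT under saline, both past that level, and without WT ethanol 14 the former was 1.13 and also passed. Without both libraries named with L, Dnmt3a was higher by 1.41 ± 0.42 after ethanol in WT mice (adjusted p = 0.035) and by 1.26 ± 0.42 in KO than WT mice under saline (adjusted p = 0.044), and the difference between ethanol effects was -1.90 ± 0.58 (adjusted p = 0.12).

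Dnmt3b, the other de novo enzyme, was close to the limit of detection in this tissue, with 2 to 40 reads a library. It was measured at 0.73, 5.66 and 0.52 CPM in WT saline 1, 3 and 13, at 1.47, 0.46 and 2.11 CPM in WT ethanol 4, 5 and 14, at 1.99, 1.17 and 1.58 CPM in KO saline 7, 8 and 9, and at 3.16, 3.34 and 2.54 CPM in KO ethanol 10, 12 and 18. The highest value was WT saline 3, from 11 reads, and the other WT saline libraries were among the lowest. Neither comparison passed, with log2 fold changes of -0.50 ± 0.87 for ethanol in WT mice (adjusted p = 0.782) and -0.24 ± 0.86 for KO versus WT under saline (adjusted p = 0.897). Without both libraries named with L these values changed sign, to 1.02 ± 0.74 (adjusted p = 0.331) and 1.30 ± 0.73 (adjusted p = 0.207).

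Tet1, which oxidises methylated cytosine, had the smallest p of the 9 genes for KO versus WT under saline and for the interaction. Its level was 27.4, 16.5 and 18.3 CPM in WT saline 1, 3 and 13, 42.2, 35.4 and 27.6 CPM in WT ethanol 4, 5 and 14, 21.2, 47.6 and 40.6 CPM in KO saline 7, 8 and 9, and 20.5, 23.4 and 20.3 CPM in KO ethanol 10, 12 and 18. WT ethanol libraries were all above WT saline libraries, by a narrow gap between WT ethanol 14 and WT saline 1. KO saline 8 and 9 were above every WT saline library, and KO saline 7 lay with the KO ethanol libraries. The log2 fold change was 0.75 ± 0.38 for ethanol in WT mice (adjusted p = 0.294) and 0.81 ± 0.37 for KO versus WT under saline (adjusted p = 0.252). In KO mice it was -0.78 ± 0.38 after ethanol (adjusted p = 0.999), which gave a difference between the ethanol effects of -1.54 ± 0.54 (edgeR adjusted p = 0.252). This difference passed an unadjusted p of 0.05 without each of the 12 libraries, whereas KO versus WT under saline no longer passed without any 1 of 9 libraries (WT saline 3 or 13, each WT ethanol library, KO saline 8 or 9, or KO ethanol 10 or 18), at 0.57 to 0.81. The ethanol effect in WT mice passed without WT saline 1, at 0.97, and that in KO mice passed without any 1 of WT saline 1, WT saline 3 and KO saline 7, at -1.02 to -0.76. Without both libraries named with L the difference between the ethanol effects was -1.39 ± 0.54 (adjusted p = 0.171), whereas the saline comparison of KO and WT mice was 0.61 ± 0.38 (adjusted p = 0.257).

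Tet2 and Tet3, which catalyse the same oxidation, did not pass in any of the 7 contrasts with all libraries. Tet2 was measured at 15.1, 30.3 and 2.60 CPM in WT saline 1, 3 and 13, at 22.3, 18.8 and 28.5 CPM in WT ethanol 4, 5 and 14, at 23.3, 22.5 and 29.3 CPM in KO saline 7, 8 and 9, and at 17.3, 25.1 and 30.8 CPM in KO ethanol 10, 12 and 18. WT saline 13 stood far below every other library, with 35 reads, and WT saline 3 was among the highest. The log2 fold changes of Tet2 were 0.59 ± 0.60 for ethanol in WT mice (adjusted p = 0.606) and 0.71 ± 0.60 for KO versus WT under saline (adjusted p = 0.523). Without WT saline 3 alone they were 1.39 and 1.52, and without both libraries named with L they were 1.34 ± 0.60 (adjusted p = 0.124) and 1.47 ± 0.60 (adjusted p = 0.091).

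Tet3 varied least of the 9 genes over the 12 libraries (root mean square 0.25 in log2 CPM, beside 0.92 for Dnmt3b). Its level was 55.7, 97.2 and 70.0 CPM in WT saline 1, 3 and 13, 80.1, 73.9 and 59.0 CPM in WT ethanol 4, 5 and 14, 63.7, 76.4 and 89.1 CPM in KO saline 7, 8 and 9, and 59.2, 55.2 and 73.0 CPM in KO ethanol 10, 12 and 18. The 4 groups overlapped, and the log2 fold change was -0.06 ± 0.32 for ethanol in WT mice (adjusted p = 0.934) and 0.04 ± 0.32 for KO versus WT under saline (adjusted p = 0.955).

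Mbd1, a reader that represses methylated promoters, was measured at 17.5, 41.1 and 20.8 CPM in WT saline 1, 3 and 13, at 23.8, 16.9 and 30.6 CPM in WT ethanol 4, 5 and 14, at 25.7, 17.8 and 19.6 CPM in KO saline 7, 8 and 9, and at 26.1, 15.0 and 26.9 CPM in KO ethanol 10, 12 and 18. WT saline 3 was the highest library and the groups overlapped. The log2 fold change of Mbd1 was -0.14 ± 0.41 for ethanol in WT mice (adjusted p = 0.877) and -0.31 ± 0.41 for KO versus WT under saline (adjusted p = 0.691).

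Mbd2, the reader that joins NuRD, was the shortest of the 9 genes, at percentile 16.9 of length. Its level was 19.3, 7.20 and 14.3 CPM in WT saline 1, 3 and 13, 24.1, 19.4 and 27.6 CPM in WT ethanol 4, 5 and 14, 20.6, 19.9 and 20.9 CPM in KO saline 7, 8 and 9, and 21.5, 15.0 and 19.4 CPM in KO ethanol 10, 12 and 18. Unlike for Dnmt1, Dnmt3a and Tet2, WT saline 3 was here the lowest library, from 14 reads. WT saline libraries were all below WT ethanol and KO saline libraries, with WT saline 1 and WT ethanol 5 nearly equal. The log2 fold change was 0.77 ± 0.38 for ethanol in WT mice (adjusted p = 0.290) and 0.57 ± 0.38 for KO versus WT under saline (adjusted p = 0.413). Without WT saline 1 both passed an unadjusted p of 0.05, at 1.06 and 0.86, and so did the interaction, at -1.16. Without both libraries named with L the ethanol effect in WT mice was 0.42 ± 0.31 (adjusted p = 0.34).

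For ethanol in KO mice, 0 of the 9 genes passed an unadjusted p of 0.05 (3.15% of all genes), and the smallest p was that of Tet1. In KO ethanol versus WT ethanol it was again 0 of 9 (3.24% of all genes), with Tet1 at -0.73 ± 0.38 (adjusted p = 0.982). The main effect of Treatment gave 0 of 9 (7.09% of all genes), with Mbd2 at 0.34 ± 0.27 (adjusted p = 0.772). The main effect of Genotype also gave 0 of 9 (7.67% of all genes), with Uhrf1 at 0.79 ± 0.43 (adjusted p = 0.623). Without WT saline 3 the effect of Genotype passed for Dnmt1 (0.98) and Dnmt3b (1.26), and without WT saline 13 or WT ethanol 4 it passed for Uhrf1 (1.15 and 1.07). The counts of 0 with all libraries are from the edgeR test, and DESeq2 gave 0 of 9 at the same level in each of these 4 contrasts.

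**Figure D2:**
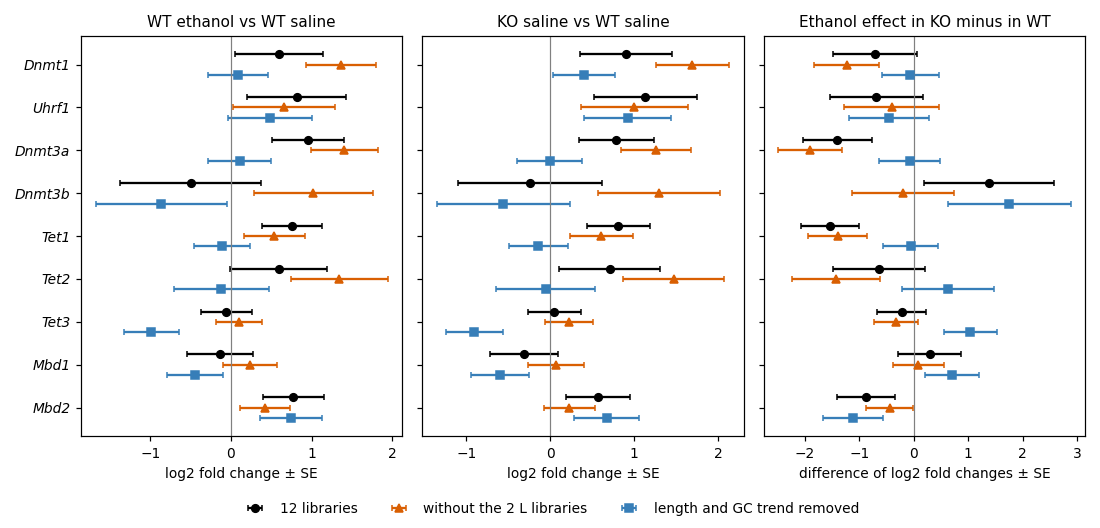
Log2 fold change ± SE of the 9 genes for ethanol versus saline in WT mice, KO versus WT mice under saline, and the ethanol effect in KO minus that in WT. Circles use 12 libraries, triangles leave out the 2 libraries whose names open with L, and squares have a trend with gene length and GC content removed from each library. Triangles for Dnmt1, Dnmt3a and Tet2 lie to the right of the circles in the first 2 panels, and the squares for Dnmt3a and Tet1 lie near 0 in all 3 panels.

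Without the libraries named with L, 3 of 9 genes (Dnmt1, Dnmt3a and Tet2) passed an unadjusted p of 0.05 for ethanol in WT mice, against 37.3% of all 14967 genes then tested. The same 3 genes passed for KO versus WT under saline (3 of 9, 39.2% of all genes), and Dnmt3a and Tet1 passed for the interaction (2 of 9, 21.4%). At an adjusted p of 0.05 it was Dnmt1 and Dnmt3a in both of the first comparisons (2 of 9 each, 21.5% and 25.3% of all genes). The shares of the 9 genes were close to those of all genes in these counts, and WT saline and KO ethanol were then groups of 2 libraries.

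The values of the long genes moved when a trend with length and GC content was removed, and the parts of length and of GC content were not separated. When this smooth trend of the log2 count with gene length and GC content was removed from each library, the log2 fold change of Dnmt3a was 0.11 ± 0.39 for ethanol in WT mice and -0.01 ± 0.39 for KO versus WT under saline, and that of Tet1 was -0.11 ± 0.35 and -0.14 ± 0.35. Dnmt1 was then at 0.08 ± 0.37 (adjusted p = 0.933) and 0.41 ± 0.37 (adjusted p = 0.603), and Tet2 was at -0.12 ± 0.59 (adjusted p = 0.939) and -0.06 ± 0.59 (adjusted p = 0.975). The interaction was then -0.07 ± 0.56 for Dnmt3a (adjusted p = 0.979) and -0.06 ± 0.51 for Tet1 (adjusted p = 0.983). Mbd2 kept its size, at 0.74 ± 0.39 for ethanol in WT mice (adjusted p = 0.35), and Uhrf1 was at 0.92 ± 0.52 in KO versus WT under saline (adjusted p = 0.409). Tet3, near 0 with all libraries, was then lower, by -0.99 ± 0.34 (adjusted p = 0.220) and -0.90 ± 0.34 (adjusted p = 0.262). It was the 1 gene of the 9 that passed an unadjusted p of 0.05 in these 2 comparisons (16.3% and 14.8% of all genes) and in the interaction (10.7%), at 1.04 ± 0.48 (adjusted p = 0.469). The median of all genes also moved, to -0.15 in both comparisons and 0.24 in the interaction.

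The Dnmt3a count was divided unequally among its transcripts between the libraries. The share of the Dnmt3a count assigned to the 2 upstream-start transcripts was 2.91, 2.91 and 16.9% in WT saline 1, 3 and 13, 50.8, 44.7 and 46.5% in WT ethanol 4, 5 and 14, 26.4, 38.3 and 43.8% in KO saline 7, 8 and 9, and 45.0, 48.6 and 45.2% in KO ethanol 10, 12 and 18. WT saline libraries were all below every other library. WT saline 1 and 3, however, carry one and the same division of the count (2.91%), which was not taken as measured transcript use, so that WT saline 13, at 16.9% from 1272 reads, was the 1 WT saline library with a division of its own. For this reason no group mean and no test of the shares is given. The upstream transcripts encode the long form of the enzyme and the internal start the short form.

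Repeated divisions also enter the tests of single transcripts, so these are given here as counts. The values printed for 3 transcripts among the flagged results further below are no measure of transcript use. Among 21715 transcripts tested, 4 of the 18 tested transcripts of the 9 genes passed an unadjusted p of 0.05 for ethanol in WT mice (18.2% of all transcripts), 6 for KO versus WT under saline (19.1%) and 3 for the interaction (15.3%). Every one of these called transcripts belonged to Dnmt3a, Dnmt1 or Uhrf1, whose values in WT saline 1 and 3 come from repeated divisions. These counts are therefore no result about transcript use. The upstream Dnmt3a transcripts passed for all 3 comparisons, and the internal-start transcript NM_153743 passed for none of them. In estimated reads, NM_001271753 was at 4.22, 5.30 and 119.88 in WT saline 1, 3 and 13 and at 191.49 to 1519.11 in the WT ethanol libraries, and the values of WT saline 1 and 3 come from the repeated division. The ratio of NM_001271753 to NM_007872 was 1.26 in 11 of the 12 libraries, so the 2 upstream transcripts were in effect 1 measurement.

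**Figure D3:**
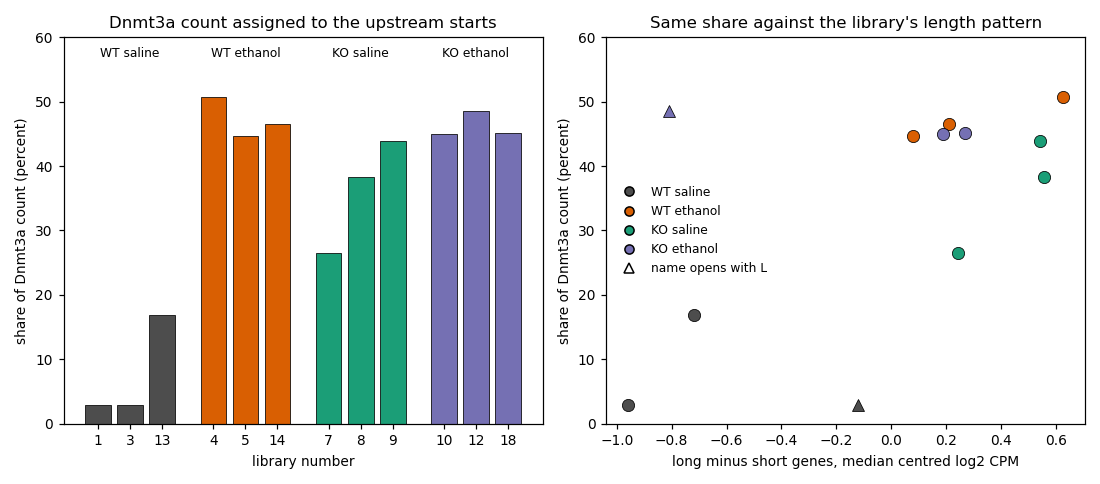
Share of the Dnmt3a count assigned to the upstream-start transcripts, in percent, as a bar for each of the 12 libraries (left) and against the long minus short gene difference of the library (right, centred log2 CPM, triangles for library names that open with L). The 3 WT saline libraries lie between 2.91 and 16.9%, below all others, 2 of them with the same repeated division, and KO ethanol 12 combines a high share of 48.6% with a strongly negative length value of -0.81.

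WT saline 1 and 13 also had length values of -0.96 and -0.72, and the part of this in the Dnmt3a shares was not tested. KO ethanol 12 had a length value as low as theirs and a share of 48.6%, from 81 reads in all. WT saline 3 had a length value near 0 and a share of 2.91%, from 326 reads. This share is the repeated division, which was not taken as measured transcript use.

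Some divisions among transcripts were the same in several libraries. The Dnmt1 count was divided into the same 5 shares (17.1, 51.1, 0.207, 14.1 and 17.5%) in WT saline 1, 3 and 13 and in KO ethanol 12, to within 0.01 percentage points, although the counts were 54, 136, 401 and 19. The Tet1 count was divided into 41.7 and 58.3% in 5 libraries, the Uhrf1 count into the same 4 shares in 4 libraries, and the Dnmt3a count into the same 3 shares in WT saline 1 and 3. Of the 6 genes with several transcripts, such a repeated division occurred for 5 in KO ethanol 12, for 4 each in WT saline 1 and 3, and for 0 in WT ethanol 4, KO saline 8 and KO saline 9. Repeated divisions were therefore not taken as measured transcript use. The other transcripts that passed were NM_001199433 of Dnmt1 and NM_010931 of Uhrf1 in both comparisons, and NM_001199431 and NM_001314011 of Dnmt1 in KO versus WT under saline. The Dnmt1 values of all 3 WT saline libraries come from the repeated division, with 0.11 to 0.83 estimated reads of NM_001199433, and NM_010931 had 0.19 to 4.66 estimated reads there.

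The gene whose pattern over the 12 libraries was nearest to each of the 9 was found among 11793 genes, by the root mean square difference of the centred log2 CPM. It was Plekhm1 for Dnmt1 (0.15 in log2), Kif1a for Dnmt3a (0.19), Rdx for Tet1 (0.18), Rrn3 for Tet3 (0.15), Poc5 for Mbd2 (0.20), Fbln2 for Uhrf1 (0.29), Cand2 for Dnmt3b (0.36) and Nsrp1 for Tet2 (0.40). For Mbd1 it was Dmap1 (0.14). This likeness is over all libraries and includes what the libraries share, such as the length pattern.

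The pathway around the 9 genes was described with 6 lists of 45 genes, of which 44 were tested. In all, 8 of the 44 passed an unadjusted p of 0.05 for ethanol in WT mice (6 higher, 2 lower) and 12 for KO versus WT under saline (10 higher, 2 lower), beside 18.3% and 19.6% of all genes. Without the libraries named with L it was 23 (18 higher, 5 lower) and 24 (18 higher, 6 lower), beside 37.3% and 39.2% of all genes, and with the length and GC trend removed 10 (6 higher, 4 lower) and 8 (7 higher, 1 lower), beside 16.3% and 14.8%. All 8 and all 12 genes also passed in the same direction without the libraries named with L, and 6 of each passed with the trend removed. Among the other maintenance and de novo factors, 1 of 6 tested genes was higher and 1 lower, both after ethanol in WT mice and in KO versus WT under saline. Uhrf2, the paralogue of Uhrf1, was at 18.4, 28.3 and 13.4 CPM in WT saline 1, 3 and 13 and at 31.4 to 62.6 CPM in the WT ethanol and KO saline libraries. It was higher by 0.92 ± 0.37 (adjusted p = 0.228) and 1.36 ± 0.37 (adjusted p = 0.176). Pcna, the sliding clamp of replication that binds Dnmt1, was lower, by -1.37 ± 0.58 (adjusted p = 0.238) and -1.32 ± 0.57 (adjusted p = 0.232), with WT saline 1 at 465 CPM and WT saline 3 at 55.5 CPM. With the trend removed Pcna passed in neither comparison (-0.58 and -0.44), and Uhrf2 passed in the second alone (1.12).

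Of 8 other methyl-CpG readers, 1 was higher after ethanol in WT mice and 3 were higher in KO versus WT under saline, and 0 were lower. The counts were 5 and 5 without the libraries named with L (37.3% and 39.2% of all genes). They were 1 and 1 with the trend removed (16.3% and 14.8% of all genes). Zbtb38, a zinc finger protein that binds methylated CpG, was at 7.0, 4.6 and 4.2 CPM in WT saline 1, 3 and 13. It was at 20.7 to 35.5 CPM in the WT ethanol and KO saline libraries. In KO ethanol 10, 12 and 18 it was at 19.1, 1.7 and 21.9 CPM, so KO ethanol 12 lay below every WT saline library. Zbtb38 was higher by 2.41 ± 0.54 after ethanol in WT mice (adjusted p = 0.113) and by 2.18 ± 0.54 in KO versus WT under saline (adjusted p = 0.160). Mbd5 was at 1.14 ± 0.54 after ethanol in WT mice (adjusted p = 0.274), and Zbtb4 was higher by 1.06 ± 0.49 in KO mice (adjusted p = 0.252), where it no longer passed with the trend removed (0.25).

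Of 9 NuRD and MeCP1 partners of the MBD proteins, 2 were higher after ethanol in WT mice and 3 in KO versus WT under saline, and 0 were lower. Without the libraries named with L, 5 were higher and 1 lower in the former and 5 higher and 2 lower in the latter (37.3% and 39.2% of all genes). With the trend removed 2 were higher and 1 lower in each (16.3% and 14.8% of all genes). Gatad2b, a scaffold subunit that binds Mbd2, was higher by 2.43 ± 0.65 (adjusted p = 0.165) and 2.29 ± 0.65 (adjusted p = 0.176). Its WT saline libraries were at 3.3, 0.5 and 2.2 CPM, and the WT ethanol and KO saline libraries at 7.9 to 14.8 CPM. KO ethanol 10, 12 and 18 were at 6.9, 0 and 7.9 CPM, so this gene was close to the limit of detection in the 2 shallowest libraries. Mta3, another NuRD subunit, was higher by 1.54 ± 0.44 (adjusted p = 0.182) and 1.39 ± 0.44 (adjusted p = 0.176).

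Of 9 genes of base excision and active demethylation, 1 was higher in each comparison and 0 were lower. This was Ogt, the O-GlcNAc transferase that binds Tet proteins, higher by 1.75 ± 0.64 (adjusted p = 0.214) and 1.93 ± 0.65 (adjusted p = 0.177). Gadd45g, a stress gene linked to demethylation, was at 2.17 ± 1.02 (adjusted p = 0.273) and 1.80 ± 1.01 (adjusted p = 0.331). Of 5 CXXC proteins, which bind unmethylated CpG, 0 passed after ethanol in WT mice, where Kdm2a was at 0.88 ± 0.44 (adjusted p = 0.295) and Kdm2b at -0.49 ± 0.32 (adjusted p = 0.409). In KO versus WT mice under saline 1 of 5 was higher, Kdm2a at 1.17 ± 0.44 (adjusted p = 0.192), which no longer passed with the trend removed (0.37), and Cxxc5 was at -0.79 ± 0.40 (adjusted p = 0.282).

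Of 7 genes that supply S-adenosylmethionine, the methyl donor, 1 was higher and 1 lower in each comparison. Mat2a, which makes the donor, was higher by 1.64 ± 0.67 after ethanol in WT mice (adjusted p = 0.230) and by 1.56 ± 0.66 in KO versus WT under saline (adjusted p = 0.223). Mat2b, its regulatory subunit, was lower after ethanol in WT mice, by -1.11 ± 0.47 (adjusted p = 0.236), and Ahcy, which removes the product of methylation, was lower in KO mice, by -0.90 ± 0.37 (adjusted p = 0.212), which no longer passed with the trend removed (-0.81). The median log2 fold change of the 6 lists lay between -0.17 and 0.53 for ethanol in WT mice and between 0.14 and 0.87 for KO versus WT under saline, beside 0.06 and 0.04 over all genes. These ranges were -0.06 to 1.58 and 0.15 to 1.49 without the libraries named with L, and -0.21 to 0.45 and -0.44 to 0.32 with the trend removed. In the interaction 5 of the 44 genes were lower (Uhrf2, Zbtb38, Zbtb4, Gatad2b and Mta3) and 0 were higher, beside 15.2% of all genes. Without the libraries named with L, 10 were lower and 1 higher (21.4% of all genes), and with the trend removed 3 were lower (Zbtb38, Gatad2b and Mta3) and 3 higher (10.7%).

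**Figure D4:**
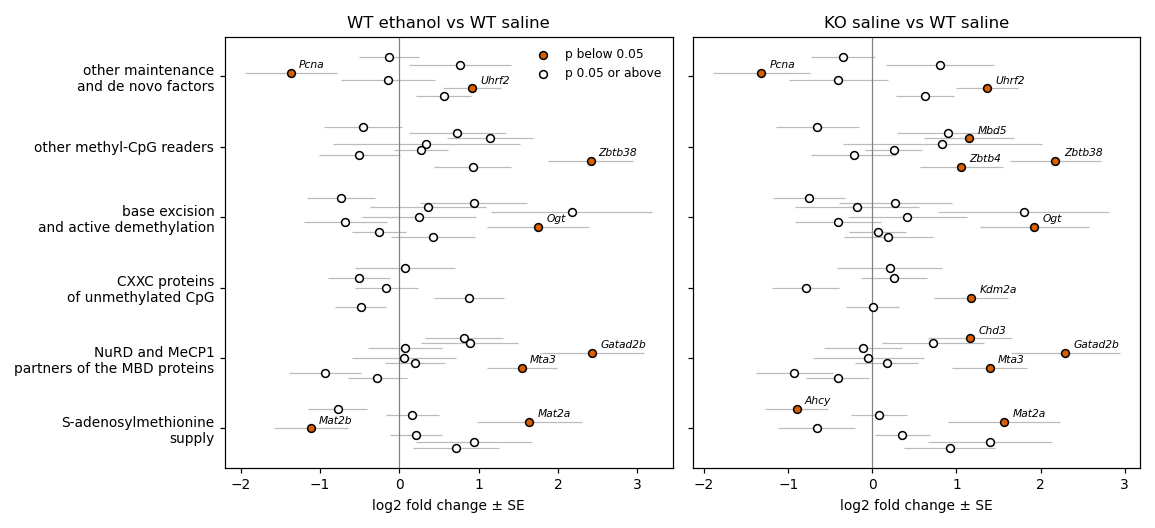
Log2 fold change ± SE of the 44 tested genes of the 6 pathway lists for ethanol versus saline in WT mice (left) and KO versus WT mice under saline (right), with genes at an unadjusted p under 0.05 filled and named. Zbtb38 and Gatad2b lie farthest to the right in both panels, at 2.41 and 2.43 on the left and 2.18 and 2.29 on the right.

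Markers of some other cells differed between the same groups. All 5 red blood cell genes were lower after ethanol in WT mice (median log2 fold change -2.86) and in KO versus WT under saline (-3.19), with 2 and 3 of the 5 lower once the trend was removed. Their summed level was 337 to 1319 CPM in WT mice with saline and 50.2 to 145 CPM with ethanol, and 35.9 to 99.3 CPM in KO mice with saline and 29.1 to 766 CPM with ethanol. Of 8 genes of dividing cells, where Dnmt1 and Uhrf1 are known to be high, 0 were higher and 1 was lower after ethanol in WT mice (18.3% of all genes). In KO versus WT under saline 2 were higher and 0 lower (19.6% of all genes). The median log2 fold change of this list was -0.31 and -0.52. Without the libraries named with L 1 was higher and 4 lower in the former and 2 higher and 4 lower in the latter (37.3% and 39.2% of all genes). With the trend removed 0 were higher and 3 lower in the former and 1 higher and 2 lower in the latter (16.3% and 14.8% of all genes). The medians of this list were then -0.60 and -0.69. The summed level of this list was 89.0 to 150 CPM in WT mice with saline and 94.97 to 129 CPM with ethanol, and 81.3 to 185 CPM in KO mice with saline and 53.5 to 102 CPM with ethanol, with Mcm2 at 0 in some library. Of the 4 choroid plexus genes, each was at 0 in some library, 1 of 4 was higher after ethanol in WT mice and 0 passed in KO versus WT under saline. Their summed level was 3.09 to 118 CPM in WT mice with saline and 20.7 to 4975 CPM with ethanol. In KO mice it was 27.0 to 2241 CPM with saline and 0 to 2207 CPM with ethanol. Of the neuronal, astrocyte, oligodendrocyte lineage, microglial, endothelial and projection neuron lists, 4 of 31 genes passed for ethanol in WT mice and 4 for KO versus WT under saline. Beside this, 18.3% and 19.6% of all genes passed, and the genes called in these lists went in both directions in each comparison. The part of these cells in the changes of the 9 genes was not tested, and in whole tissue fewer cells of a type and less RNA per cell cannot be told apart.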

How the data were processed

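Stranded total RNA-Seq reads were filtered on base quality, aligned by the authors to mm10 with Bowtie2 within TopHat and quantified against a dated release of RefSeq in Partek Flow (tool versions and quantification settings are not given in the sources used here). The authors deposited estimated counts per transcript and library, not scaled for depth, and RPKM values, whose distributions are nearly the same in all libraries. Counts were added per symbol, rounded and tested by quasi-likelihood in edgeR 4.0.16 under R 4.3.3, after filterByExpr and TMM scaling, with 1 mean per group over 12 libraries, two-sided, with Benjamini-Hochberg adjustment over all 14739 genes. SE values were taken from log2 fold change and F. The interaction is the ethanol effect in KO minus that in WT. On simulated data, 200 changed genes were drawn and the test was checked to recover them. Alternatives used DESeq2 1.42.0 and limma 3.58.1. No group mean or permutation test of the Dnmt3a transcript shares is given, because 2 of the 3 WT saline libraries carry the same division of the count. Figures and other steps used scipy 1.17.1, matplotlib 3.10.9, pandas 2.3.3 and numpy 2.4.6 in Python 3.11.15. Gene lengths and GC content came from GENCODE, and start windows from RefSeq on the same assembly.

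The 9 genes were named in every comparison. Of each of the 6 pathway lists, the 2 genes with the smallest p for ethanol in WT mice and the 2 for KO versus WT under saline were named, and the nearest gene of each of the 9 was sought among genes with a mean count of at least 50. Genes named beyond this rule, as single called transcripts or interaction genes, were chosen after their values were seen. The 9 genes and the lists were chosen with earlier results of these data known. The authors collected cortex first by laser microdissection and later by hole punch, and the labels do not say which was used for each of these libraries. Depth was 719735 to 17066392 counts a library.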

Additional observations from a re-analysis of the deposited data

Results flagged for a closer look

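The ethanol effect differed between genotypes, by the interaction test at an unadjusted p under 0.05, for Tet1 (-1.54 on the log2 scale, adjusted p = 0.252, edgeR) and for Dnmt3a (-1.40, adjusted p = 0.318). Neither passed an adjusted p of 0.05, and with the length and GC trend removed both differences lay near 0 (-0.06 and -0.07). These were 2 of the 9 genes, beside 15.2% of all genes at the same unadjusted level.

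By the same test the ethanol effect differed for the upstream Dnmt3a transcripts NM_007872 (-3.84) and NM_001271753 (-3.62), which are in effect 1 measurement and whose values in WT saline 1 and 3 come from a repeated division that was not taken as measured transcript use, and for the Dnmt1 transcript NM_001199433 (-6.93), a fitted value that rests on under 1 estimated read, from a repeated division, in each WT saline library. These 3 values are therefore no measure of transcript use. The adjusted p of each of these 3 transcripts was 0.210. Groups of 3 libraries were not tested for outlying samples.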

How the results depend on the processing

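With all libraries, 0 of the 9 genes passed an unadjusted p of 0.05 for ethanol in WT mice, 1 for KO versus WT under saline and 2 for the interaction, and the cause of the changes below was not tested. For ethanol in WT mice the count was 1 with DESeq2, with at least 1 count in any library, with limma on log2(RPKM + 1), with an unmoderated linear model on RPKM, with the name letter as a covariate, and with the length and GC trend removed, with or without the libraries named with L. It was 2 with at least 10 counts in every library, and 3 without TMM factors and without the libraries named with L. Of all genes, 18.3% passed with all libraries, 37.3% without the libraries named with L and 16.3% with the trend removed. The shares of all genes in the other settings are not given here. For KO versus WT under saline the count of the 9 genes was 0 with DESeq2, at least 1 count in any library and each of the 3 RPKM models. It was also 0 with only the groups compared and with transcripts fitted separately, and 3 without TMM factors and without the libraries named with L. With the trend removed and those libraries left out it was 2, Dnmt1 and Tet3 (an alternative chosen after seeing the data). Of all genes, 19.6% passed with all libraries, 39.2% without the libraries named with L and 14.8% with the trend removed. For the interaction the count of the 9 genes was 0 with each RPKM model and with transcripts fitted separately. It was also 0 with the trend removed and those libraries left out, and 1 with the trend removed. Of all genes, 15.2% passed with all libraries, 21.4% without the libraries named with L and 10.7% with the trend removed.

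Ethanol in KO mice gave 1 gene with at least 10 counts in every library and without the libraries named with L. KO ethanol versus WT ethanol gave 1 with only the groups compared and with the trend removed without those libraries. The main effect of Treatment gave 1 without TMM factors, without the libraries named with L, and with the trend also removed, and that of Genotype gave 2 and 3 under the last pair. Leaving out each library in turn gave 0 to 3 genes for ethanol in WT mice, 0 to 3 for KO versus WT under saline, 1 to 3 for the interaction, 0 to 1 for ethanol in KO mice and 0 to 2 for Genotype. The count of 3 in the first comparison came without WT saline 3. The Tet1 interaction passed without each of the 12 libraries (-1.76 to -1.30), that of Dnmt3a without 4 of 12 (-1.84 to -0.93), and Tet1 in KO versus WT under saline without 3 of 12.

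Called values turned sign only with the trend removed. Tet1 in KO versus WT under saline was then -0.14 (-0.31 also without the libraries named with L), Tet3 was -0.90 (-1.002), the Tet3 interaction was 1.04, and the Tet1 effect of Genotype was -0.43 with both changes. Values that passed in neither fit changed sign 23, 16 and 12 times in the 3 main comparisons, of 221, 221 and 212. Called transcripts numbered 0 in all 3 comparisons with at least 10 counts in every library, where 4 transcripts remained, and 6 for the interaction without the libraries named with L. They numbered 3 to 7, 3 to 7 and 3 to 6 with each library left out. Over all genes the counts of 2704, 2890 and 2237 ranged over 1417 to 5582, 1647 to 5862 and 1473 to 3538. They ranged over 48 to 1141 for ethanol in KO mice and 264 to 1249 for KO ethanol versus WT ethanol. For Treatment the range was 376 to 4599 and for Genotype 504 to 5115. No paired analysis was possible because the 4 groups share no library number. Depth limits Dnmt3b and Uhrf1 most, with 2 reads each in KO ethanol 12.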
